A study of Homo sapiens with 12 samples.

Results

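The HOX cluster genes are described here across neuroepithelial and neural crest cultures made from human embryonic stem cells. They were taken as every gene whose array symbol consists of HOX, a cluster letter from A to D and a paralog number, whether or not its probes were detected. This gave 29 genes read by 36 probes, of 20046 named genes and 47322 probes on the array. HOXB supplied 10 genes, HOXC 9, HOXD 9 and HOXA 1, which was HOXA2. The other HOXA genes are not analysed here.

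Illumina HT-12 bead arrays were hybridised with RNA from 12 cultures of H9, an established human embryonic stem cell line, in 4 groups of 3 that the titles number as biological replicates. LSB held neuroepithelial cells at day 11 that were not sorted. MS5-NC held cells taken at day 35 after neural crest induction on mouse MS5 stromal feeders, and NPC-NC held cells taken at day 18 after feeder-free induction. Both were sorted for HNK1, a surface carbohydrate, and p75, a neurotrophin receptor. The sox10-NC group held Wnt-induced cells at day 11 from H9 cells that carry a sox10::GFP reporter, sorted for GFP. Induction, day and sort differed together between the groups, and the reporter line was used in 1 group alone, so their parts cannot be told apart. Nothing in the labels says that the cultures of a group were started independently, so p-values measure the spread between these cultures.

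HOX genes encode homeodomain transcription factors that lie in clusters in the order in which they are used along the head to tail axis. Low-numbered paralogs pattern the hindbrain and the neural crest that leaves it, middle paralogs the trunk, and high-numbered paralogs the lumbar, sacral and tail levels. Forebrain and midbrain, and the cranial crest that arises from them, lie in front of the HOX domain and are known to be free of HOX expression. Retinoic acid, Wnt and FGF signals are known to induce the clusters, and Polycomb proteins to keep them silent.

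On each array 14616 to 17101 probes (30.9% to 36.1%) had a detection p-value under 0.01, the threshold for calling a probe detected. The detection floor, the lowest normalised level that passed this threshold, lay between 5.08 and 5.45 on the log2 scale. Precision is limited by the 3 arrays per group. The sorted groups differed in how far they matched their name. Of 8 neural crest markers, 7 were detected on at least 2 of 3 arrays in sox10-NC, and 3 in each other group. SOX10, TFAP2B, FOXD3 and PAX3 were absent from the detected markers of MS5-NC and NPC-NC, and NGFR, the gene of p75, was absent from those of MS5-NC. Of 6 markers of central nervous system neuroepithelium, 3 were detected in sox10-NC and 5 in each other group. The groups are therefore called by their labels alone.

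HOX transcripts lay at or near the background of the array in all 4 groups. Of the 432 values that the 36 probes gave on 12 arrays, 18 (4.17%) passed the detection threshold, against 33.9% of the values of all probes. At a detection p under 0.05 the count was 41 (9.49%), against 40.3% of all values. At a detection p under 0.001 it was 0 of 432, against 26.3%. The HOX probes had a median log2 level of 4.41 to 4.54 on the 12 arrays, while detected probes of any gene had a median of 7.04 to 7.45. The median HOX level sat between percentiles 21.2 and 38.1 of all probes of its array. The median number of beads behind a HOX probe was 17.5 to 23.5 on the arrays, against 18 to 22 for all probes. In RNA from a whole culture or sort, fewer cells that express a gene and less RNA per cell cannot be told apart.

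**Figure D1:**
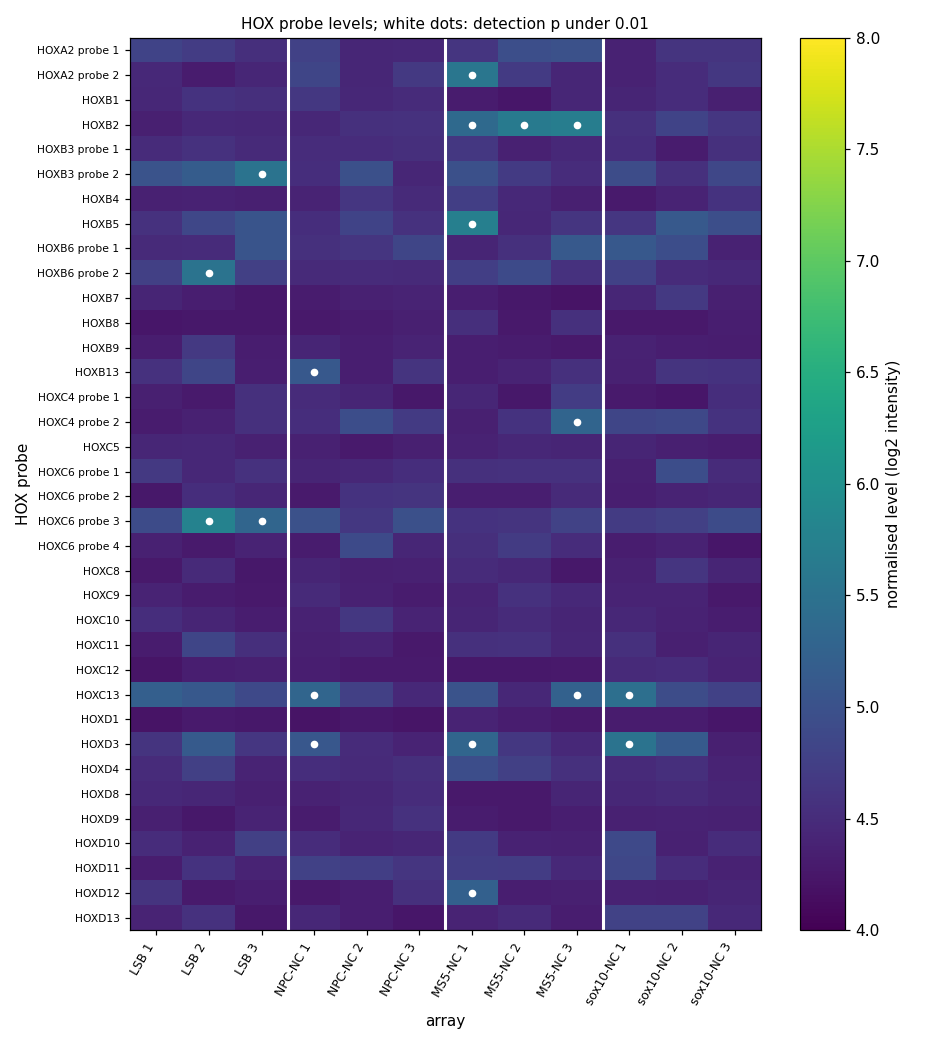
Normalised log2 intensity of the 36 HOX probes (rows, by cluster and paralog) on the 12 arrays (columns, by group), with white dots where the detection p-value was under 0.01. 18 of the 432 cells carry a dot, and the highest level is 5.77.

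Taken gene by gene, 18 of the 29 members were detected on 0 of 12 arrays by any probe, 7 on 1 array, 1 on 2 arrays and 3 on 3 arrays. The 18 were HOXB1, HOXB4, HOXB7, HOXB8, HOXB9, HOXC5, HOXC8 to HOXC12, HOXD1, HOXD4, HOXD8 to HOXD11 and HOXD13. Among them are HOXB1, which sets the identity of a hindbrain segment, HOXC8 and HOXC9 of the trunk, and HOXD13 of the tail and limb tip. Their log2 levels ran from 4.21 to 4.95. A gene counted as detected in a group when any of its probes passed on at least 2 of the 3 arrays. By this count HOXC6 was detected in LSB, HOXB2 in MS5-NC, and 0 of 29 members in NPC-NC and in sox10-NC. Over all genes of the array the shares were 49.1% in LSB, 51.6% in NPC-NC, 50.5% in MS5-NC and 46.5% in sox10-NC. With 1 array sufficient, the members came to 3 in LSB, 3 in NPC-NC, 7 in MS5-NC and 2 in sox10-NC, against 55.5%, 57.9%, 57.2% and 52.8% of all genes.

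HOXB2, which acts in the hindbrain and in the crest of the second pharyngeal arch, was the member detected on all arrays of a group. Its raw intensity was 120.3, 120.0 and 121.8 on the MS5-NC arrays, 92.8, 99.8 and 104.6 on the LSB arrays, 94.97, 93.9 and 95.2 on the NPC-NC arrays, and 90.2, 98.4 and 96.6 on the sox10-NC arrays. On the normalised log2 scale it was 5.37, 5.66 and 5.70 in MS5-NC, 4.35, 4.46 and 4.45 in LSB, 4.45, 4.55 and 4.57 in NPC-NC, and 4.55, 4.80 and 4.63 in sox10-NC. The 3 MS5-NC arrays were the highest of the 12 and did not overlap with any other group, while every array of the other 3 groups lay below its floor, at 4.35 to 4.80. Between LSB and MS5-NC the fitted log2 difference was 1.15 ± 0.20 (SE, n = 3 arrays per group, limma adjusted p = 2.77e-04). Against the floor of the LSB arrays, where HOXB2 was not detected, this is at least 1.28-fold higher in MS5-NC. HOXB2 had entered the test through the 3 MS5-NC arrays alone, so its call repeats that detection and is no separate support. It was the 1 HOX gene called of 3 tested, in a comparison where 20.9% of the 11280 tested genes were called in either direction and 13% as higher in MS5-NC. A call took an adjusted p under 0.05, a change of at least 2-fold and, in the higher group, detection on at least 2 arrays.

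HOXB2 was also lower in NPC-NC and sox10-NC than in MS5-NC in the fit, without being called. Here too HOXB2 had entered through the MS5-NC arrays alone, so these p-values repeat the detection and are no separate support. The log2 difference of NPC-NC from MS5-NC was -1.05 ± 0.20 (unadjusted p = 6.44e-05, limma adjusted p = 0.0660), at least 1.37-fold against the floor. That of sox10-NC from MS5-NC was -0.92 ± 0.20 (limma adjusted p = 0.00222), at least 1.13-fold against the floor and short of the 2-fold threshold. LSB, NPC-NC and sox10-NC were all below the floor for HOXB2, so no fold is given among them, and their fitted differences of 0.10 to 0.24 had limma adjusted p-values of 0.402 to 0.738. The MS5-NC call rests on a signal just above background. Without background correction the log2 difference was 0.46 and with an offset of 50 it was 0.56, both short of 2-fold, with limma adjusted p-values of 0.00462 and 0.00629. Without any single MS5-NC array the gene no longer met the filter of detection on at least 3 arrays, and with the tested genes held as chosen on 12 arrays its difference stayed between 1.09 and 1.25.

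Markers of cells other than crest and neuroepithelium were read beside HOXB2. The summed intensity of 4 pluripotency markers was 59.6 to 784 in MS5-NC, 3979 to 4386 in LSB, 214 to 384 in NPC-NC and 3037 to 3533 in sox10-NC. Of these, LIN28A and ZFP42 were detected in LSB and sox10-NC and LIN28A alone in MS5-NC and NPC-NC. POU5F1 and NANOG were detected in no group. The summed intensity of 4 surface epithelium markers was 131 to 283 in MS5-NC, 952 to 1411 in LSB, 169 to 312 in NPC-NC and 122 to 352 in sox10-NC. The summed intensity of 5 posterior neural and spinal motor markers was 255 to 377 in MS5-NC, 49.4 to 63.7 in LSB, 109 to 302 in NPC-NC and 424 to 1761 in sox10-NC. ISL1 was the 1 marker detected in MS5-NC, and ISL1 and OLIG2 were detected in NPC-NC and sox10-NC. MNX1, LHX3 and NKX6-1 were detected in no group. The summed intensity of 5 lateral and limb mesoderm markers was 78.2 to 109.6 in MS5-NC, 32.2 to 43.6 in LSB, 115 to 169.6 in NPC-NC and 36.5 to 50.6 in sox10-NC, with PRRX1 the 1 marker detected in MS5-NC and in NPC-NC. The sum of 5 paraxial mesoderm markers was 28.5 to 80.1 over the 4 groups, and FOXC2 in sox10-NC was the 1 of them detected. Markers of notochord and primitive streak, endoderm, and blood and endothelium were detected in no group. Any part of such cells in the HOXB2 level was not tested.

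**Figure D2:**
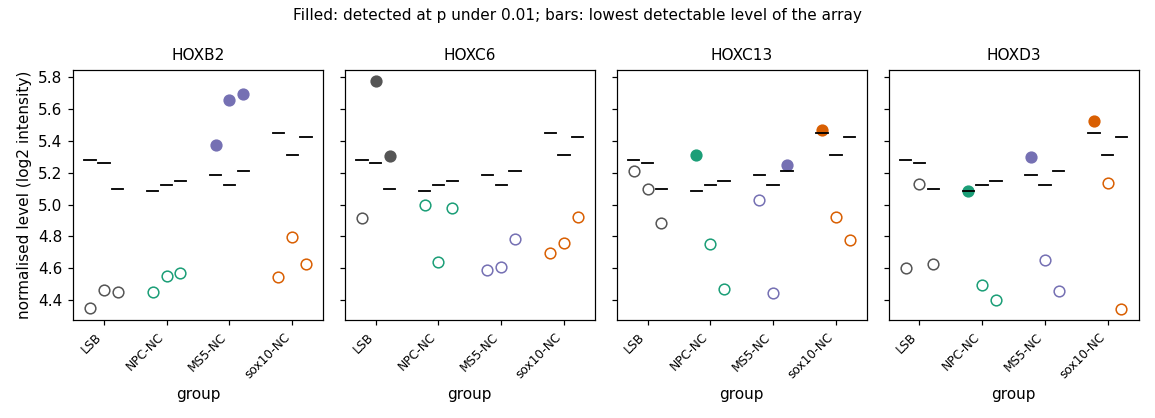
Normalised log2 intensity of HOXB2, HOXC6, HOXC13 and HOXD3 on each of the 12 arrays (1 point per array, by group); filled points had a detection p-value under 0.01 and bars mark the detection floor of that array. HOXB2 stands above its floors in MS5-NC alone, HOXC6 on 2 LSB arrays, and HOXC13 and HOXD3 on single arrays of 3 groups.

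HOXC6, a trunk-level gene that takes part in specifying brachial motor neurons in mouse, held the highest HOX level of the series. The 1 of its 4 probes that was ever detected read 4.92, 5.77 and 5.31 in LSB, 4.99, 4.64 and 4.98 in NPC-NC, 4.59, 4.61 and 4.78 in MS5-NC, and 4.70, 4.76 and 4.92 in sox10-NC. LSB arrays 2 and 3 were highest, and LSB array 1 lay below its floor and within the range of NPC-NC. The remaining 3 HOXC6 probes were detected on 0 arrays, with log2 levels of 4.25 to 4.94, so the probes disagree. HOXC6 did not meet the filter for the test. In a fit of all 20046 genes without that filter, HOXB2 and HOXC6 were the members with an adjusted p under 0.05 between MS5-NC and LSB, HOXB2 was the only one between MS5-NC and NPC-NC and between MS5-NC and sox10-NC, and 0 of 29 members passed in the other 3 comparisons. By unadjusted p under 0.05 that fit held 3.45% to 10.3% of the members and 8.27% to 29.7% of all genes.

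HOXC13, known for its part in hair and nail, and HOXD3, which shapes the upper cervical vertebrae in mouse, were detected on single arrays of 3 groups. HOXC13 read 5.21, 5.10 and 4.89 in LSB, 5.31, 4.75 and 4.47 in NPC-NC, 5.03, 4.44 and 5.25 in MS5-NC, and 5.47, 4.92 and 4.78 in sox10-NC. HOXD3 read 4.60, 5.13 and 4.63 in LSB, 5.08, 4.50 and 4.40 in NPC-NC, 5.30, 4.65 and 4.46 in MS5-NC, and 5.53, 5.14 and 4.35 in sox10-NC. For both genes the 4 groups overlapped. Neither was called in any comparison, with fitted log2 differences of -0.22 to 0.34 (SE 0.27 to 0.31) and limma adjusted p-values of 0.476 to 0.984.

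Of the 3 tested members, 0 were called between NPC-NC and LSB, where 15% of tested genes were, and 0 between sox10-NC and LSB, where 18.4% were. The count was 0 between NPC-NC and MS5-NC against 0.0798% of tested genes, 0 between sox10-NC and NPC-NC against 14%, and 0 between sox10-NC and MS5-NC against 17.3%. At an unadjusted p under 0.05 limma found 0 of 3 in NPC-NC against LSB, in sox10-NC against LSB and in sox10-NC against NPC-NC. It found 1 of 3, HOXB2, in each of the 2 other comparisons with MS5-NC, the group through whose arrays HOXB2 had entered the test. The 3 tested members had entered the test through single or few detected arrays, so these counts say nothing of the 26 others.

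The remaining detected members passed on 1 array each. HOXB5, a regulator of vagal crest and the enteric nervous system, read 5.72 on MS5-NC array 1 and 4.45 and 4.62 on the other MS5-NC arrays. HOXA2, the selector gene of the second pharyngeal arch, read 5.57 on MS5-NC array 1 with one probe and 4.61 with its other probe. HOXD12, a gene of the distal limb, read 5.23 on the same array. MS5-NC array 1 thus held 5 detected HOX probes, the most of any array, while MS5-NC array 2 held 1. HOXB3 of the caudal hindbrain read 5.52 on LSB array 3, HOXB6 read 5.52 on LSB array 2, HOXC4 read 5.28 on MS5-NC array 3, and HOXB13, a tail and prostate gene, read 5.11 on NPC-NC array 1. For HOXA2, HOXB3, HOXB6 and HOXC4 the other probe of the gene was detected on 0 arrays.

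Grouped by axial position, detected values were 9 of 144 for paralogs 1 to 4, 4 of 180 for paralogs 5 to 9 and 5 of 108 for paralogs 10 to 13. The median log2 levels of these classes were 4.51, 4.42 and 4.43. In MS5-NC the counts were 6 for paralogs 1 to 4, 1 for 5 to 9 and 2 for 10 to 13. LSB had 1, 3 and 0, NPC-NC had 1, 0 and 2, and sox10-NC had 1, 0 and 1. Paralogs 1 and 7 to 11 had 0 detected values. By cluster the counts were 1 of 24 for HOXA, 7 of 144 for HOXB, 6 of 156 for HOXC and 4 of 108 for HOXD. Some genes are read by more than 1 probe, and HOXC4, HOXC5 and HOXC6 have overlapping transcripts, so these values are not independent.

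**Figure D3:**
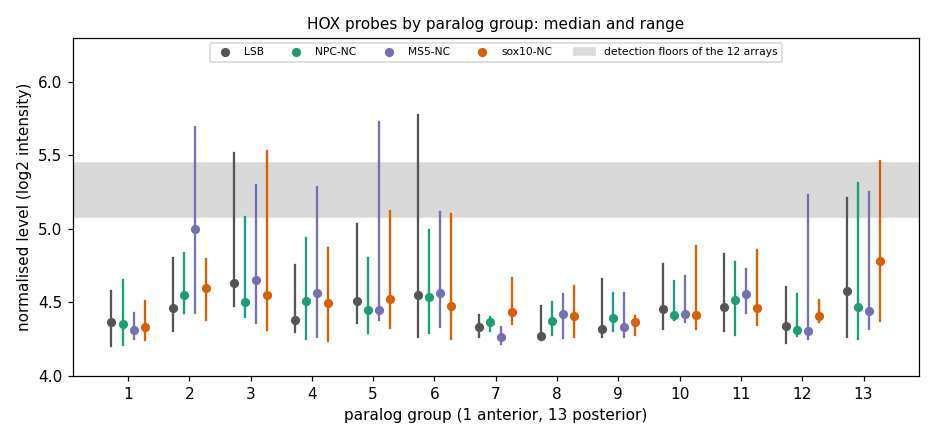
Normalised log2 intensity of HOX probes by paralog number and group; points are the median and lines the range over probes and arrays, and the grey band spans the detection floors of the 12 arrays. All medians lie below the band, and the ranges of paralogs 2 to 6, 12 and 13 reach into it or beyond it.

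The promoters of members were read from RefSeq (build GRCh38.p14), which gave an entry for 12 of the 29 genes, with 1 window shared by HOXC4 and HOXC5. The 250 bases upstream of 2 genes are printed. HOXA2 is shown as the HOXA member analysed here and as a holder of TGATTNAT, the motif of HOX proteins bound with a TALE cofactor, and HOXD3 as a tested member.
HOXA2, chr7:27102684-27102933, minus strand: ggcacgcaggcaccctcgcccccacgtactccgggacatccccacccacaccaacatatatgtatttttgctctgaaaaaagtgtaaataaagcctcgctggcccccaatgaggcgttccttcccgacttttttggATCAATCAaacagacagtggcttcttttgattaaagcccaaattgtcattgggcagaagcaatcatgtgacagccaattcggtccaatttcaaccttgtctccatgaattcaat
HOXD3, chr2:176157057-176157306, plus strand: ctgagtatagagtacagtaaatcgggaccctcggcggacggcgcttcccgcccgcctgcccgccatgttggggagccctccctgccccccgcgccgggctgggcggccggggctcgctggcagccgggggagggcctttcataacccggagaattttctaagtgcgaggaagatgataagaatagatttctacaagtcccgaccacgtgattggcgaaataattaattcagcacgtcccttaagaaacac
Capitals mark the 1 match to TGATTNAT, which lies on the reverse strand in HOXA2. Searched on both strands, the motif was present in 2 of 12 HOX promoters (16.7%), those of HOXA2 and HOXD11, and in 2.48% of 35097 RefSeq promoters of the same length. AGGTCA, the half-site of retinoid receptors, was present in 0 of 12 and in 12.1% of all promoters. The HOX promoters held a median of 18.5 CG dinucleotides, against 11 for all promoters. A match describes the letters of this window alone.

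Noncoding genes of the clusters were at background as well. The array reads the hairpin genes of 5 HOX-embedded microRNAs, MIR10A, MIR10B, MIR196A1, MIR196A2 and MIR196B, which are known to repress HOX transcripts. The mature sequences of those with a RefSeq entry are given because the families share seeds, with bases 2 to 8 in capitals.
hsa-miR-10a-5p (MIR10A, chr17:48579904-48579926, minus strand): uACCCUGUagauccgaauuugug
hsa-miR-196a-5p (MIR196A1, chr17:48632532-48632553, minus strand, and MIR196A2, chr12:53991762-53991783, plus strand): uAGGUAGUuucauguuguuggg
hsa-miR-196b-5p (MIR196B, chr7:27169528-27169549, minus strand): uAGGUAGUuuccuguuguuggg
The seed AGGUAGU is shared by miR-196a and miR-196b, which differ at 1 base, and miR-10a has the seed ACCCUGU. The probes carry the names of the hairpin genes and do not report mature microRNAs. All 5 genes were detected on 0 of 12 arrays, at group mean log2 levels of 4.34 to 4.58. HOTAIR, a long noncoding RNA of the HOXC cluster, and HOXA11-AS were also detected on 0 arrays, and HOTTIP of the HOXA cluster on 1 LSB array.

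Genes that flank the clusters ranged from undetected to bright, with 7 or 8 of 23 neighbours and noncoding genes detected in each group. HIBADH beside HOXA, SMUG1 and CBX5 beside HOXC, and MTX2 and HNRNPA3 beside HOXD were detected on all 12 arrays, at group mean log2 levels of 8.32 to 9.62. Beside HOXB, SKAP1, PRAC1 and PRAC2 were detected on 0 arrays and TTLL6 on 1 LSB array, and SKAP2 beside HOXA was detected on 1 array of each group. EVX1 and EVX2, homeobox genes at the cluster ends, were detected on 0 arrays. Of the 23 genes, 9 were tested and 1 was called against LSB in any group. This was ATP5MC3, a subunit of ATP synthase, with a log2 level of 6.996 ± 0.25 (SD) in LSB. It fell by 1.25 ± 0.34 on the log2 scale in MS5-NC (limma adjusted p = 0.00782) and fell by 1.41 ± 0.34 in sox10-NC (limma adjusted p = 0.00379). Both calls ended without array 2 of the lower group, where the log2 differences were -0.99 and -0.97, and with an offset of 50. Over all tested genes 32.9% were called in at least 1 of the 3 comparisons with LSB.

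Other axial genes were then counted in the same fit. As background for their counts, 10.2% of tested genes were called higher and 4.84% lower in NPC-NC than in LSB, 13% and 7.85% in MS5-NC, and 9.77% and 8.64% in sox10-NC. The 3 comparisons share the LSB arrays. With arrays scaled to a common median instead of quantiles, the median log2 difference of all genes from LSB became -0.13 in NPC-NC, -0.27 in MS5-NC and -0.34 in sox10-NC, against 0.01, 0.00 and -0.02, so rises are relative to the quantile scale.

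**Figure D4:**
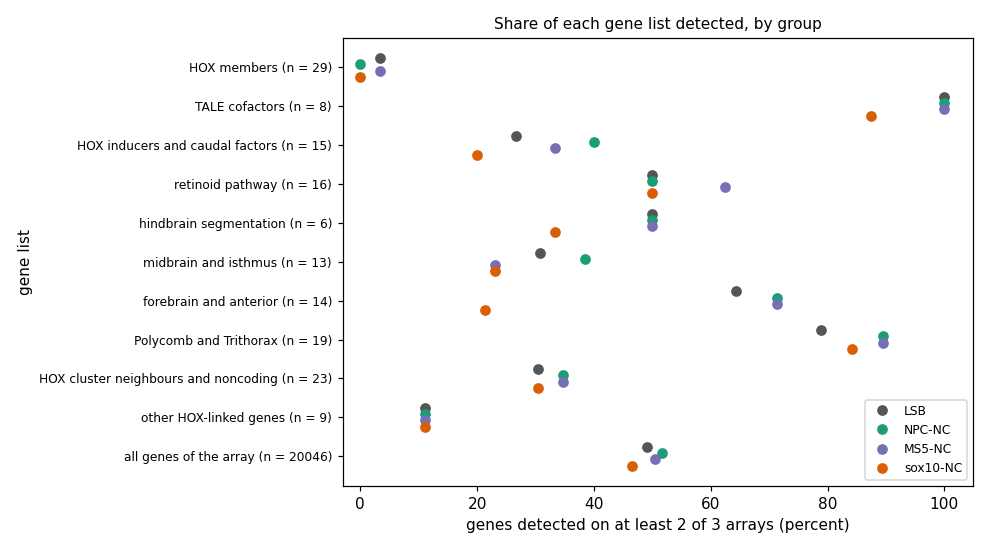
Percentage of the genes of each list detected on at least 2 of 3 arrays, by group (1 point per group), with the number of genes on the array in brackets. The HOX members lie at 0% to 3.45%, and all genes of the array at 46.5% to 51.6%.

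Of 15 genes on the array listed as HOX inducers or caudal factors, 4 were detected in LSB, 6 in NPC-NC, 5 in MS5-NC and 3 in sox10-NC. The list is broad, and not each of its genes is known to induce HOX clusters. CDX2, CDX4 and TBXT, the caudal and Brachyury factors of the posterior growth zone, were detected on 0 of 12 arrays, and CDX1 on 1 sox10-NC array. WNT3A, a posterior Wnt ligand, was detected on the 3 MS5-NC arrays at 5.35 ± 0.07 (SD), on 1 sox10-NC array and on 0 arrays of the other 2 groups, with a log2 difference from LSB of 0.79 ± 0.35 that was not called (limma adjusted p = 0.0792). Of the 15 listed genes 8 were tested, and 7 were called against LSB in at least 1 group, 2 higher and 1 lower in NPC-NC, 1 higher and 1 lower in MS5-NC, and 2 higher and 3 lower in sox10-NC.

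FGF8, a ligand of the isthmus and the anterior neural ridge, was highest in LSB at 8.95 ± 0.15 (SD). It fell by 2.26 ± 0.56 on the log2 scale in NPC-NC (limma adjusted p = 0.00586) and fell by 3.95 ± 0.56 in MS5-NC (limma adjusted p = 3.55e-05), and in sox10-NC, where it was undetected, it was at least 11.8-fold lower (limma adjusted p = 8.61e-06). FGF8 was detected on 3 LSB arrays, 2 NPC-NC arrays and 1 MS5-NC array, so the fitted falls rest in part on levels below the floor. Its MS5-NC arrays read 6.31, 4.27 and 4.43. Its NPC-NC arrays read 4.92, 7.86 and 7.30, so that array 1 stood apart. The log2 difference was -1.37 without that array and -2.85 without NPC-NC array 2, and in MS5-NC it was -4.60 without array 1, with the call kept each time. SP5, a direct target of Wnt signalling, reached 8.64 ± 0.40 in sox10-NC and was undetected in each other group, at least 10.8-fold higher than in LSB (limma adjusted p = 3.51e-10). SP5 had entered the test through the sox10-NC arrays alone, so its call repeats that detection and is no separate support. SP8, a factor that acts upstream of FGF8, and WNT5B, a Wnt ligand, were undetected in sox10-NC and were at least 25.2-fold and 7.34-fold lower there than in LSB (limma adjusted p = 4.98e-12 and 2.54e-09). WNT5A, a Wnt ligand of axial elongation, was at least 2.05-fold higher in MS5-NC than in LSB (limma adjusted p = 0.001002), a call that ended with an offset of 50.

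FGF17, a ligand of the FGF8 family, read 4.65, 8.54 and 8.24 on the NPC-NC arrays and 5.05, 5.01 and 5.19 on the LSB arrays. NPC-NC array 1 lay below every LSB array, and the other NPC-NC arrays far above them. In the fit FGF17 rose in NPC-NC by 2.06 ± 0.64 on the log2 scale (limma adjusted p = 0.0229). FGF17 was detected on 2 NPC-NC arrays, 1 LSB array and 1 MS5-NC array. It met the detection filter only with the NPC-NC arrays, so its call is no separate support. Its call ended without LSB array 1 or 2 or NPC-NC array 2 or 3, with log2 differences of 1.36 to 2.04, and without NPC-NC array 1 the difference was 3.31 (limma adjusted p = 8.15e-07). The call also ended with no filter on dim probes and with the trend and robust options of eBayes. GDF11, which helps set posterior HOX borders in mouse, rose by 1.10 ± 0.24 (limma adjusted p = 0.00232), with 0.997 and no call without NPC-NC array 3. Its call also ended with the mean over detected probes (0.67), with median scaling (0.81) and without background correction (0.95). GDF11 was detected on all 12 arrays.

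TALE proteins bind DNA together with HOX proteins, and transcripts of most TALE genes were detected in every group. On at least 2 arrays, 7 of the 8 TALE genes were detected in sox10-NC and all 8 in each other group. MEIS1 had log2 levels of 6.78 ± 0.13 (SD) in LSB, 7.76 ± 0.32 in NPC-NC and 7.85 ± 0.12 in MS5-NC, and was undetected in sox10-NC, at least 2.62-fold lower than in LSB (limma adjusted p = 2.52e-05). MEIS2 stood at 8.49 ± 0.12 in LSB and 7.39 ± 0.30 in sox10-NC, where it fell by 1.10 ± 0.23 (limma adjusted p = 0.00148). PKNOX2 rose in sox10-NC by 2.09 ± 0.29 (limma adjusted p = 2.90e-05). Against LSB, 1 TALE gene was called higher in NPC-NC, 5 higher in MS5-NC and 1 higher and 2 lower in sox10-NC, with median log2 differences of 0.60, 1.06 and -0.10 over the 8 tested.

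In MS5-NC the 5 called TALE genes were PBX3, MEIS3, PKNOX2, MEIS1 and PBX4, with log2 differences from LSB of 1.46 ± 0.27, 1.11 ± 0.26, 1.08 ± 0.29, 1.07 ± 0.22 and 1.06 ± 0.23 (limma adjusted p = 4.89e-04 to 0.00757). MEIS3 in NPC-NC had 1.17 ± 0.26 (limma adjusted p = 0.00251). With median scaling the count in MS5-NC was 0, and it was 1 with an offset of 50. Of these calls, MEIS1 (0.99) ended without LSB array 2, MEIS3 (0.996 and 0.96) without LSB array 1 or MS5-NC array 3, and PKNOX2 (0.91) without MS5-NC array 1. MEIS1 in NPC-NC (0.97 ± 0.22, limma adjusted p = 0.00331) passed 2-fold without LSB array 1 (1.02) or NPC-NC array 2 (1.12). MEIS2 in sox10-NC fell short of 2-fold without sox10-NC array 1 (-0.98) and with an offset of 50. With the mean over its detected probes the MEIS2 difference was -0.69, also short of 2-fold.

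Retinoid genes were mixed in direction. Of 16 on the array 13 were tested, with 2 higher and 3 lower in NPC-NC than in LSB, 2 higher and 1 lower in MS5-NC, and 4 higher and 3 lower in sox10-NC. RARA, a retinoic acid receptor, rose in all 3 groups, with log2 differences of 1.62 ± 0.22 in NPC-NC, 1.77 ± 0.22 in MS5-NC and 1.83 ± 0.22 in sox10-NC (limma adjusted p = 3.06e-05, 7.28e-06 and 4.28e-06). RDH10, which makes the precursor of retinoic acid, rose by 2.47 ± 0.28 in MS5-NC and rose by 1.69 ± 0.28 in NPC-NC (limma adjusted p = 3.60e-06 and 2.67e-04). STRA6, the retinol transporter, was at least 4.51-fold higher in sox10-NC than in LSB (limma adjusted p = 4.85e-07), and RXRA, the partner receptor, rose there by 1.53 ± 0.23 (limma adjusted p = 6.84e-05).

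Genes that make retinoic acid, break it down or respond to it differed by group. ALDH1A3, an enzyme of its synthesis, was at least 1.98-fold lower in NPC-NC and 1.64-fold lower in sox10-NC (limma adjusted p = 0.00607 and 0.00271). In MS5-NC it fell by 1.15 ± 0.38 (limma adjusted p = 0.0227). This MS5-NC call ended without LSB array 1 (-0.88) or MS5-NC array 2 or 3 (-0.86 and -0.86), and the difference was -1.74 without MS5-NC array 1. ALDH1A3 was detected on 3 LSB arrays and 1 MS5-NC array, so it met the detection filter only with the LSB arrays. Its calls repeat that detection and are no separate support. ALDH1A1 was at least 2.31-fold lower in NPC-NC (limma adjusted p = 5.00e-04). CYP26A1, which breaks retinoic acid down and is induced by it, had log2 levels of 6.17 ± 0.41 (SD) in LSB, 6.09 ± 0.16 in NPC-NC and 7.10 ± 0.89 in MS5-NC, and was at least 1.71-fold lower in sox10-NC (limma adjusted p = 0.00336). RARB, a receptor gene that retinoic acid induces, was detected on all 3 sox10-NC arrays at 5.99 ± 0.57 and on 1 MS5-NC array. It was at least 1.71-fold higher in sox10-NC than in LSB (limma adjusted p = 0.00856), with a log2 difference of 1.19 that became 0.91 without sox10-NC array 1. RARB met the detection filter only with the sox10-NC arrays, so its call repeats that detection and is no separate support. The calls of ALDH1A1, ALDH1A3, CYP26A1 and RARB all ended with an offset of 50, and those of RARA and RDH10 in NPC-NC ended without background correction.

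Genes of head levels in front of the HOX domain differed between the groups, and most that were called in sox10-NC were lower there. OTX2, a forebrain and midbrain factor, had log2 levels of 9.98 ± 0.08 (SD) in LSB, 10.12 ± 0.31 in NPC-NC and 10.27 ± 0.31 in MS5-NC, and 6.74 ± 0.25 in sox10-NC, where it fell by 3.24 ± 0.24 on the log2 scale. LHX2, EMX2 and SIX3, forebrain and eye-field factors, were undetected in sox10-NC, at least 32.0-fold, 13.9-fold and 4.99-fold lower than in LSB (limma adjusted p = 4.98e-12 to 1.09e-08). NR2F1, a nuclear receptor of cortex and crest, rose there by 5.38 ± 0.52 (limma adjusted p = 3.56e-07) and in MS5-NC by 2.58 ± 0.52 (limma adjusted p = 9.06e-04). Of 13 tested forebrain genes, 4 were higher and 4 lower in NPC-NC than in LSB, 5 higher and 3 lower in MS5-NC, and 1 higher and 8 lower in sox10-NC.

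DLX1, a ventral forebrain and crest factor that LSB did not detect, was at least 15.2-fold higher in NPC-NC and 15.1-fold higher in MS5-NC (limma adjusted p = 7.40e-06 and 4.45e-06). Its fitted log2 difference in NPC-NC was 4.66, and 5.44 without NPC-NC array 1. HESX1, SIX6 and RAX of the anterior neural plate and eye field went the other way. HESX1 was at least 4.72-fold lower in NPC-NC and 4.54-fold lower in MS5-NC (limma adjusted p = 7.63e-07 and 3.17e-07). HESX1 was detected on LSB arrays alone and entered the test through them, so its calls repeat that detection. SIX6 fell by 2.79 ± 0.32 on the log2 scale in NPC-NC and fell by 2.98 ± 0.32 in MS5-NC, and RAX fell by 2.79 ± 0.28 in NPC-NC (limma adjusted p = 1.92e-06 to 6.75e-06).

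Of 13 midbrain and isthmus genes on the array, 4 were detected in LSB, 5 in NPC-NC, 3 in MS5-NC and 3 in sox10-NC. EN1 was detected on 0 arrays, EN2 on 1 NPC-NC array, and GBX2, which sets the midbrain to hindbrain border, on 2 NPC-NC arrays at a mean log2 level of 5.21 ± 0.14 (SD) over the 3. FGF8 was the 1 called gene of 4 tested midbrain and isthmus genes against LSB. Of 6 hindbrain segmentation genes, 2 were detected in sox10-NC and 3 in each other group, and all 3 that were tested were called against LSB in at least 1 group. EFNB2, an ephrin of segment borders, rose by 1.09 ± 0.24 in NPC-NC, 1.37 ± 0.24 in MS5-NC and 1.77 ± 0.24 in sox10-NC (limma adjusted p = 0.00273, 2.85e-04 and 2.35e-05), and its call in NPC-NC (0.84) ended without NPC-NC array 1. With median scaling the calls of EFNB2 in NPC-NC and MS5-NC ended. EPHA4, a receptor of hindbrain segment borders, fell by 3.33 ± 0.34 in sox10-NC (limma adjusted p = 6.90e-07), and EPHA2 was at least 1.46-fold lower there (limma adjusted p = 0.00509), a call that ended with an offset of 50.

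**Figure D5:**
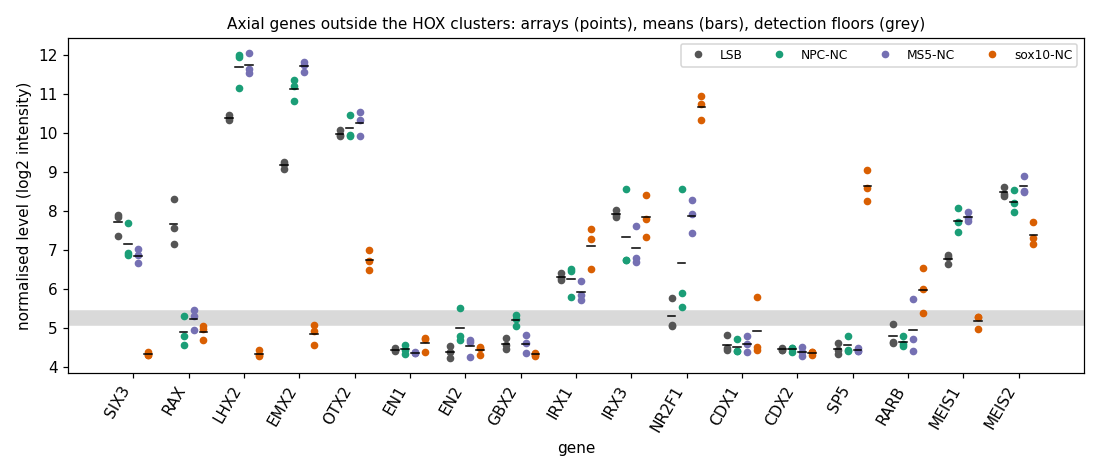
Normalised log2 intensity of axial genes outside the HOX clusters on each array (points, by group), with group means (bars) and the range of detection floors (grey). OTX2 lies near 6.74 in sox10-NC and at means of 9.98 to 10.27 in each other group, while EN1 and CDX2 lie in or below the grey band on all 12 arrays.

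Of 19 Polycomb and Trithorax genes on the array, which regulate HOX chromatin, 15 were detected in LSB, 16 in sox10-NC and 17 in each of the other groups. The test took in 17 of them, with 5 higher and 0 lower in NPC-NC than in LSB, 4 higher and 1 lower in MS5-NC, and 4 higher and 0 lower in sox10-NC. EZH2, the Polycomb methyltransferase, had log2 levels of 8.24 ± 0.21 (SD) in LSB, 8.59 ± 0.12 in NPC-NC, 8.20 ± 0.07 in MS5-NC and 8.30 ± 0.29 in sox10-NC. KMT2B, a Trithorax methyltransferase that opposes Polycomb, rose by 1.34 ± 0.26 in NPC-NC, 2.10 ± 0.26 in MS5-NC and 1.94 ± 0.26 in sox10-NC (limma adjusted p = 0.001003, 8.87e-06 and 1.83e-05). KMT2A, which maintains HOX expression in blood and bone, was undetected in LSB and at least 2.47-fold, 3.12-fold and 2.06-fold higher in these groups (limma adjusted p = 1.69e-04, 1.29e-05 and 7.36e-04).

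PCGF2, a Polycomb subunit, rose by 1.32 ± 0.23 in NPC-NC and 1.41 ± 0.23 in MS5-NC (limma adjusted p = 4.07e-04 and 1.47e-04). ASXL1, a partner of a Polycomb deubiquitinase, rose by 1.48 ± 0.22 in sox10-NC (limma adjusted p = 5.62e-05). KDM6B, which removes the Polycomb mark, rose by 1.30 ± 0.38, 1.37 ± 0.38 and 1.06 ± 0.38 in NPC-NC, MS5-NC and sox10-NC (limma adjusted p = 0.0151, 0.00808 and 0.0363). Its call ended in NPC-NC without LSB array 1 (1.08) or NPC-NC array 2 (1.19), and in sox10-NC without LSB array 1 or 3 or sox10-NC array 1 or 2 (0.60 to 1.05). With an offset of 50 the counts of called list genes were 1, 3 and 2 in the 3 groups, with the calls of KDM6B ended in all 3 groups, of KMT2A in NPC-NC and sox10-NC and of KMT2B in NPC-NC, and the call of PCGF2 in MS5-NC ended with median scaling.

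Of 9 further genes tied to HOX function in crest and hindbrain, 1 was tested. RET, the receptor of enteric crest, was detected on 1 array each of MS5-NC and NPC-NC, and EPHA7, SIX2, ALX4, TBX5 and HAND2 on 0 arrays. The tested gene was MEIS2, given above.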

How the data were processed

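Biotinylated cRNA was made from total RNA and read on Illumina HT-12 arrays, per the labels' protocols. Per probe and array, the deposited table gives a linear mean intensity, a detection p-value and a count of beads, per the file headers. Bead standard errors, in 12 further columns, were left aside. GenomeStudio is named in the submitters' processing notes. A matrix of processed linear intensity, also deposited, has column medians of 7.54 to 7.58 and steps not given in the sources used here, and served as an alternative. Probes were named through GEO's platform annotation, with symbols updated from RefSeq: of 47322 probes 30113 had 1 gene, 8 several and 17201 none.

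In R 4.3.3, neqc of limma 3.58.1 (offset 16) corrected background, normalised by quantiles and took log2. Genes with a probe detected at p under 0.01 on at least 3 of 12 arrays (11280) were each represented by their brightest such probe. Calls of a gene detected in a single group repeat that detection and are no separate support. The same holds for a gene that fell short of this filter without the arrays of its higher group. All 4 groups were fitted together (lmFit, eBayes, two-sided), with Benjamini-Hochberg adjustment over all genes in each of 6 comparisons. The pipeline was tested on simulated data. The changed genes of that simulation were drawn from probes brighter than any HOX probe, so it does not cover calls near the floor. Where 1 group was undetected on all its arrays, folds are lower bounds against its floor. The HOX members were all described. List genes were named if called, up to 4 per list and comparison with LSB by size, with a panel of 13 genes named whatever their values. PBX4, WNT3A, EZH2 and the genes named as undetected or as cluster neighbours were added after their values were seen. The members and lists were chosen with earlier results of these data known. Figures were drawn with matplotlib 3.10.9. Sequences came from RefSeq tables.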

Additional observations from a re-analysis of the deposited data

How the results depend on the processing

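The count of HOX genes called between MS5-NC and LSB was 1, and 0 with an offset of 50, without background correction and with the authors' series matrix values (HOXB2 log2 difference 0.58, limma adjusted p = 0.0393). Leaving out single arrays gave 0 to 1. Between NPC-NC and MS5-NC it was 0, and 1 with no filter on dim probes or the mean over probes (limma adjusted p = 0.0216 and 0.0474). Without single arrays, with the tested genes held as chosen on 12 arrays (an alternative chosen after seeing the data), it was 0 to 1 there and between sox10-NC and MS5-NC. Pairing of arrays by number was not shown, and these ranges alone cannot exclude it. Deviations of same-numbered arrays correlated at -0.09 to 0.18 over 18 pairs, others at -0.21 to 0.11 over 36. With the replicate number as a block, HOXB2 had a limma adjusted p of 4.83e-04 between MS5-NC and LSB, the HOX counts were 1 there and 0 elsewhere, and every list count was the same. Wherever the detection filter was used, HOXB2 entered through the MS5-NC arrays alone, so its p-values in those fits are no separate support. HOX genes detected in LSB, MS5-NC, NPC-NC and sox10-NC were 4, 3, 1 and 1 at p under 0.05, 0 in each at p under 0.001, 3, 7, 3 and 2 with 1 array sufficient, 0 in LSB with all 3 arrays required, and 0 to 1 in LSB without single arrays.

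Of the list counts called against LSB, TALE cofactors went from 6 to 3 with an offset of 50 and 2 without background correction, retinoid genes from 9 to 5 and 5, Polycomb and Trithorax genes from 7 to 4 and 3, cluster neighbours from 1 to 0 and 0, and further HOX-linked genes from 1 to 0 and 0. Median scaling gave 2 midbrain genes and 3 neighbours, single probes gave 2 neighbours, and the mean over probes gave 0 HOX-linked genes. Leaving out arrays gave 1 to 2 midbrain genes, 1 to 2 neighbours and 0 to 1 HOX-linked genes. Of the 59 named list calls, 30 held under every alternative run, 19 ended with an offset of 50, 25 without background correction, 10 with median scaling and 12 without one array or another. No direction reversed among called results, and the cause of the changes was not tested.

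Calls over all genes with an offset of 50 and without background correction were 950 and 633 of 1696 for NPC-NC against LSB, 1449 and 988 of 2358 for MS5-NC, 1260 and 836 of 2077 for sox10-NC, 947 and 641 of 1583 for sox10-NC against NPC-NC, and 1200 and 834 of 1955 for sox10-NC against MS5-NC. Between NPC-NC and MS5-NC the 9 calls became 3 to 15 under the alternatives and 3 to 36 without single arrays. With median scaling the share of calls that were higher went from 67.8% to 48.2% in NPC-NC, from 62.4% to 33.6% in MS5-NC and from 53.1% to 23.0% in sox10-NC against LSB, and from 33.7% to 20.8% in sox10-NC against NPC-NC. The slide could not be used as a block because the headers name none. No array here held high HOX signal, so whether each probe reports its transcript was not measured, and absence of a transcript cannot be read from a level at background.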
